A study of Sorghum bicolor with 12 samples.

Results

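A set of 146 highly abundant mRNAs of control sorghum shoots was described in every RNA-seq and ribosome profiling library of a sulfur deficiency experiment. They came from the 150 transcripts with the highest mean RNA level over the 3 control shoots, in CPM (each count relative to its library total). Ranked were transcripts that the footprint table also lists with a coding length over 240 and under 6000 bases. Transcripts whose IDs began with any of 10 listed prefixes were then left out, which removed 4 and kept 146 of the 34210 transcripts measured, or 0.427%. Among those removed were Sobic.010G160700.1 and Sobic.009G132900.1, which had more control RNA than any of the 146. The 146 were thus chosen by their control RNA levels, which are given as a description and support no result. Whole shoots of Sorghum bicolor, inbred line BTx623, were taken 13 days after sowing, after 5 days of germination and 8 days of treatment. Control seedlings received 500 µM sulfate. Sulfur-deficient seedlings received 10 µM by the sample titles and the growth protocol, whereas the series' design text gives 0 µM. Each treatment had 3 shoots, called biological replicates, and both libraries of a shoot came from the same frozen powder, which gave 12 libraries from 6 shoots.

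Ribosome profiling sequences the short mRNA pieces that ribosomes shield from nuclease, and RNA-seq of the same material counts the mRNA itself. The ratio of footprints to mRNA is read as ribosomes per mRNA, called translational efficiency when it is compared between conditions. In leaves, the mRNA pool is known to be dominated by a small set of nuclear transcripts, many of them for photosynthesis, and sorghum divides C4 carbon fixation between mesophyll and bundle sheath cells. Sulfate enters the plant's metabolism through cysteine and methionine, and low sulfate is known to alter the expression of genes for its uptake and use. Transcripts are identified in the files by ID alone, and 0 of the IDs matched the gene table at hand. The function of each mRNA is therefore not given, no gene group could be formed, and the labelled tissue was not checked against marker genes. In a whole shoot, fewer cells of a type and less RNA per cell cannot be told apart.

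Depth ran from 13995665 to 18475153 counts per library for RNA and from 6328659 to 11066815 for footprints. Some libraries stood apart from their groups. The RNA of deficient shoot 1 correlated best with control shoot 3 (Pearson's r of log2 CPM across transcripts 0.9887), above its correlations with deficient shoot 2 (0.9853) and deficient shoot 3 (0.9833). Among the footprint libraries, deficient shoot 2 had the lowest correlations with the others, 0.9597 to 0.9714. Calls and median changes and ratios are given with and without some of these libraries. Counts of mRNAs whose shoots did not overlap and coefficients of variation are given only with them. Levels below are CPM scaled by TMM (a factor that corrects for differences in library composition), except at the limit of the choice, where CPM is unscaled.

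The 146 mRNAs spanned a 13.3-fold range of mean control RNA level, from 602.0 to 7994 CPM with a median of 991.2. The last inside the limit were Sobic.004G259200.1, Sobic.005G194400.1 and Sobic.001G265900.1, at unscaled control means of 613.2, 612.8 and 607.5 CPM. The first outside were Sobic.009G143700.1, Sobic.003G222500.1 and Sobic.002G431100.1, at 602.4, 598.7 and 593.6 CPM, so the limit cuts a continuous series of levels. The first 26 of the 146 held 50% of their summed control counts. All 10 chromosomes carried some of these genes, from 5 on chromosome 5 to 24 on chromosome 4, as read from the IDs.

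The 146 mRNAs held 26.3%, 25.8% and 26.1% of the RNA counts of control shoots 1 to 3, a mean of 26.1% ± 0.256 (SD, n = 3). They held 26.2%, 26.3% and 26.7% in deficient shoots 1 to 3, a mean of 26.4% ± 0.264. Of the footprints they held 27.5%, 26.3% and 27.8% in control shoots (27.2% ± 0.773) and 29.0%, 31.6% and 27.5% in deficient shoots (29.4% ± 2.08). The treatments thus overlapped in both assays, and deficient shoot 2 had the highest share of footprints. The exact 95% binomial interval of the share in that library, which covers counting error only, ran from 31.6% to 31.7%. Without deficient shoot 2 the mean share of footprints in deficient shoots was 28.2%. The first 10 of the 146 in order of control RNA took 6.87% ± 0.0792 of the RNA in control shoots and 7.16% ± 0.146 in deficient shoots.

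**Figure D1:**
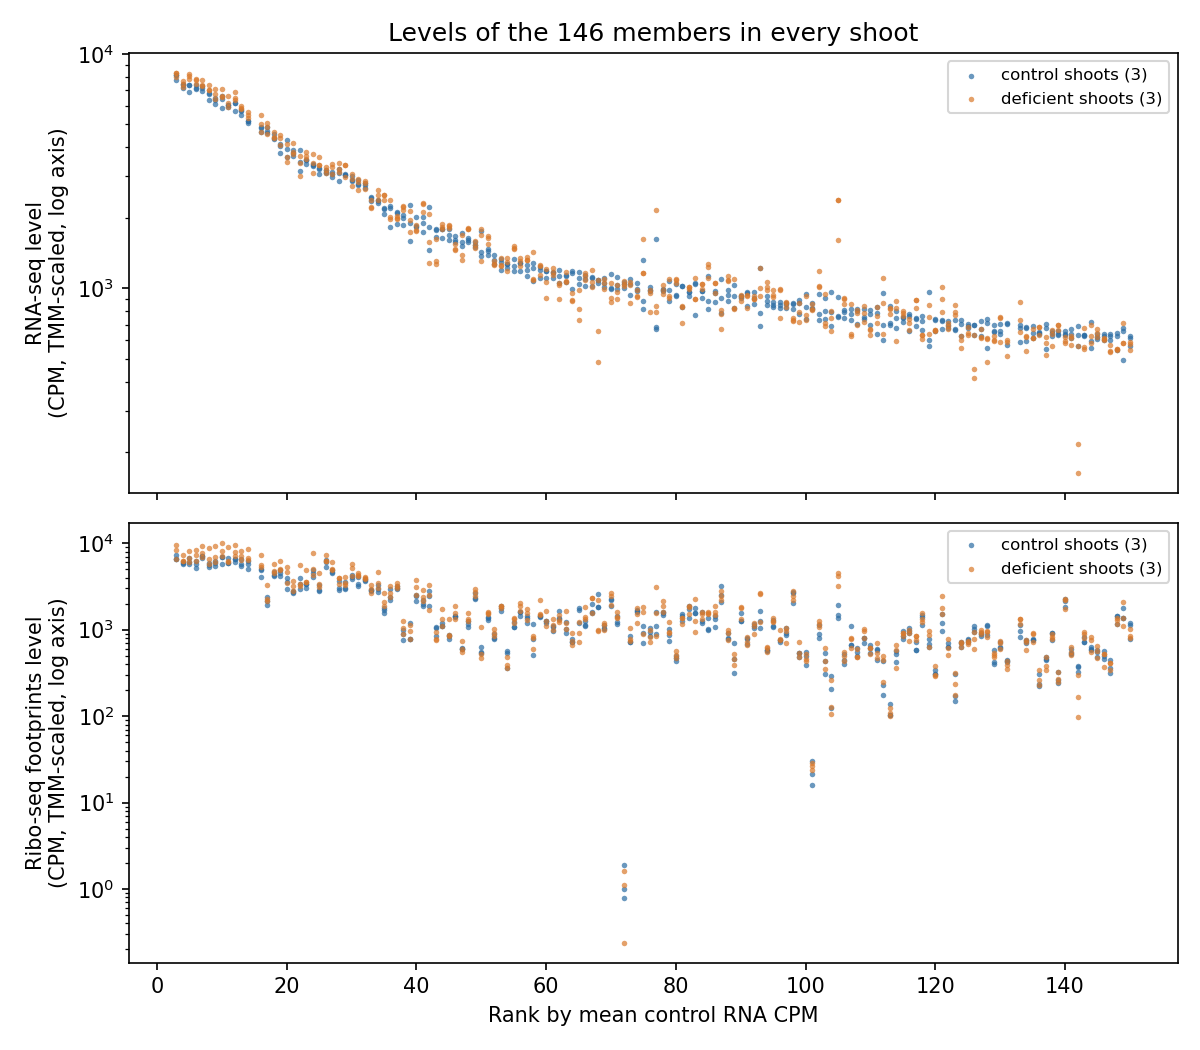
RNA (top) and footprint (bottom) level in CPM on a log axis for each of the 146 mRNAs in each of the 6 shoots, in order of the control RNA level; each point is 1 shoot, coloured by treatment. Points of one mRNA lie close together in RNA, while a few mRNAs drop far below the others in footprints.

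The most abundant of them was Sobic.001G177000.1, with a coding length of 789 bases. Its RNA level was 8127, 7705 and 8151 CPM in control shoots and 7968, 8290 and 8288 CPM in deficient shoots. Its footprint level was 7394, 6584 and 6521 CPM in control shoots and 8290, 9441 and 6529 CPM in deficient shoots. The treatments overlapped in both assays, and footprints were highest in deficient shoot 2. The next 9 in the order of control RNA were Sobic.010G241000.1, Sobic.007G071500.1, Sobic.007G136900.1, Sobic.005G087000.1, Sobic.004G056900.1, Sobic.002G352100.1, Sobic.010G189300.1, Sobic.001G046900.1 and Sobic.009G234600.1, from 7328 down to 6009 CPM. From Sobic.010G241000.1 on, the control shoots of each mRNA overlapped those of the next in this order, except that each control shoot of Sobic.005G087000.1 (6924 CPM or more) lay above those of Sobic.004G056900.1 (6799 CPM or less). Deficient shoot 2 had the highest footprint level of the 6 shoots for each of these 10 mRNAs.

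CPM favours long transcripts, so mRNAs were also compared per kilobase of coding length. On that scale the control RNA level ran from 175.8 to 18053 CPM per kilobase, with a median of 1184. Sobic.007G071500.1, with 399 bases of coding sequence, was the highest on that scale, ahead of Sobic.001G177000.1 at 10132, Sobic.001G046900.1 at 9929 and Sobic.007G136900.1 at 9516 CPM per kilobase. A choice of equal size by control RNA per kilobase shared 101 of the 146 mRNAs. The coding length had a median of 891 bases (quartiles 618 and 1510, range 279 to 4863), against 1164 bases (quartiles 708 and 1725) over 20021 transcripts tested in RNA. These mRNAs were thus shorter at the median than transcripts in general, although the choice on CPM favours length.

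The same mRNAs ranked high in libraries that the choice did not use. In the RNA of deficient shoots, 132 of the 146 were among the first 150 transcripts and 145 among the first 300, out of 32030 ranked. The lowest of them in that order, Sobic.010G240400.1, ranked 363. By footprints of control shoots, 113 were among the first 150 and 135 among the first 300, and by footprints of deficient shoots 111 and 132. Across the 146 mRNAs, RNA and footprint levels in deficient shoots had a Spearman's rho of 0.766 in CPM and of 0.904 per kilobase, where both levels share the same length. The RNA of deficient shoots, which the choice did not use, varied between shoots by a median coefficient of variation of 5.01%. It was 6.25% for the next 150 transcripts by control RNA and 9.0% for all transcripts tested. For footprints the medians of these 146 mRNAs were 9.76% in control and 14.4% in deficient shoots, against 11% and 11.9% for the next 150 and 13.6% and 16.2% for all tested. In the footprints of deficient shoots these mRNAs thus varied more than the next 150, and elsewhere less. Deeper counts carry less counting error, and its part in these values was not tested.

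The RNA level in deficient shoots varied by less than 10% for 110 of the 146 mRNAs and by more than 50% for 2. These were Sobic.010G240400.1, described with the treatment comparison, and Sobic.004G164200.1, which was named after its values were seen. The RNA level of Sobic.004G164200.1 was 669.8, 684.8 and 1618 CPM in control shoots 1 to 3 and 2168, 840.2 and 794.8 CPM in deficient shoots 1 to 3. Control shoot 3 and deficient shoot 1, the pair whose RNA was alike across treatments, were its highest.

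The ratio of footprints to mRNA was led with in deficient shoots, since the control RNA level, its denominator in control shoots, chose the mRNAs. In deficient shoots the log2 ratio of these mRNAs had a median of 0.14 (quartiles -0.31 and 0.53), against -0.28 (quartiles -0.97 and 0.29) for the 16420 transcripts tested in both assays. A log2 ratio of 0 means equal shares of the scaled libraries and not a number of ribosomes. The ratio lay within 1 log2 unit of 0 for 122 of the 146, or 83.6%, compared with 70.1% of all tested. It lay below -1 for 15 (10.3%, against 24.4%) and above 1 for 9 (6.16%, against 5.57%). In control shoots the median was -0.0024 against -0.31 for all tested. Median ratios of these mRNAs were 0.0057, -0.034 and 0.015 in control shoots 1 to 3 and 0.12, 0.29 and 0.017 in deficient shoots 1 to 3. Each shoot's median was thus above that of all transcripts, which ran from -0.31 to -0.26 over the 6 shoots. Without deficient shoot 2 the median in deficient shoots was 0.077, and without deficient shoot 3 it was 0.22. For an equal number of mRNAs chosen on control RNA per kilobase it was 0.083. The ratio had a Spearman's rho of 0.045 with coding length across the 146 mRNAs.

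**Figure D2:**
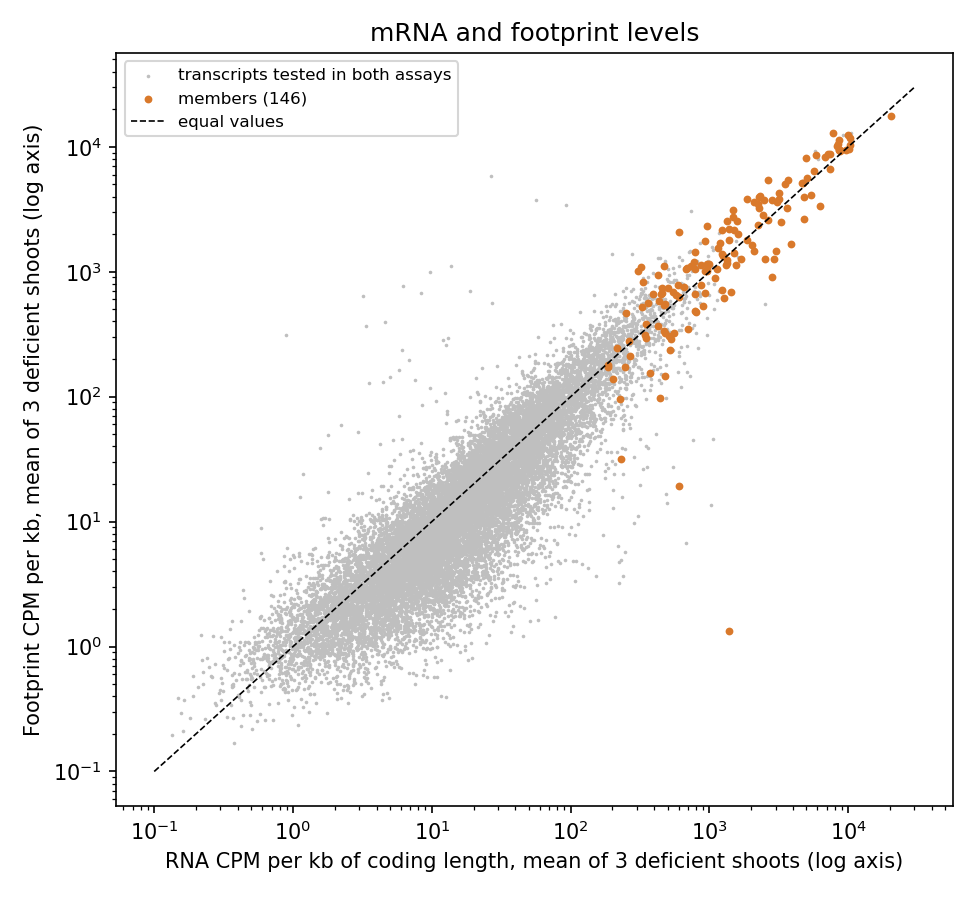
Footprint level against RNA level, both in CPM per kilobase of coding length on log axes, as means of the 3 deficient shoots; grey points are the transcripts tested in both assays, orange points the 146 mRNAs, and the dashed line marks equal values. Most of the 146 lie near the line, and 3 lie far below it.

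A few abundant mRNAs carried very few footprints. Sobic.010G175400.1, with 756 bases of coding sequence, had RNA levels of 1046, 1000 and 1062 CPM in control shoots and 1072, 1039 and 1022 CPM in deficient shoots. Its footprint counts were 9, 22 and 7 in control libraries and 10, 2 and 9 in deficient ones. Its mean log2 ratio in deficient shoots was -10.28 ± 1.31 (SD, n = 3), which rests on those few counts and on the prior count added to them. It ranked 72 by control RNA and 15958 by control footprints, and it did not pass the low-count filter for footprints.

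Sobic.006G135600.4 had RNA levels of 811.4 to 861.8 CPM in the 6 shoots and footprint levels of 16.1 to 30.4 CPM, a log2 ratio of -4.98 ± 0.12 in deficient shoots. Sobic.003G040900.3 had footprint levels of 101.1 to 137.7 CPM at RNA levels of 699.8 to 839.2 CPM, a log2 ratio of -2.87 ± 0.15. For both the ratio was low in each of the 6 shoots, and the control and deficient shoots overlapped. Next came Sobic.001G012300.1 at -2.26 ± 0.71 and Sobic.001G504000.9 at -1.76 ± 0.35. Footprints of Sobic.001G012300.1 were uneven between shoots, at 122.7, 203.5 and 293.1 CPM in control and 106.0, 126.2 and 263.0 CPM in deficient shoots.

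The number after the last point of an ID tells the transcripts of a gene apart. It was other than 1 for 13 of the 146 mRNAs (8.90%) and for 14.3% of all transcripts tested in RNA. Among the 5 with the lowest ratio it was other than 1 for 3. The median log2 ratio in deficient shoots was -0.29 for the 13 and 0.16 for the other 133, and 4 of the 13 and 11 of the 133 lay below -1. How reads shared by transcripts of a gene were assigned is not given in the sources used here, and its part in these ratios was not tested.

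The highest ratios were closer to the rest. Sobic.001G219300.1 had RNA levels of 659.3, 636.5 and 632.7 CPM in control and 618.6, 596.1 and 586.3 CPM in deficient shoots. Its footprint levels were 2266, 2134 and 1822 CPM in control and 2259, 2222 and 1741 CPM in deficient shoots. Its mean log2 ratio was 1.78 ± 0.18 in deficient shoots and 1.53 to 1.78 in the single control shoots. Sobic.008G178800.1 at 1.75 ± 0.18, Sobic.001G344500.2 at 1.71 ± 0.07, Sobic.006G247100.1 at 1.31 ± 0.20 and Sobic.005G194400.1 at 1.23 ± 0.32 followed. The 3 highest differed by less than the spread between shoots. Of these 5, the control and deficient shoots overlapped in footprint level for each one.

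**Figure D3:**
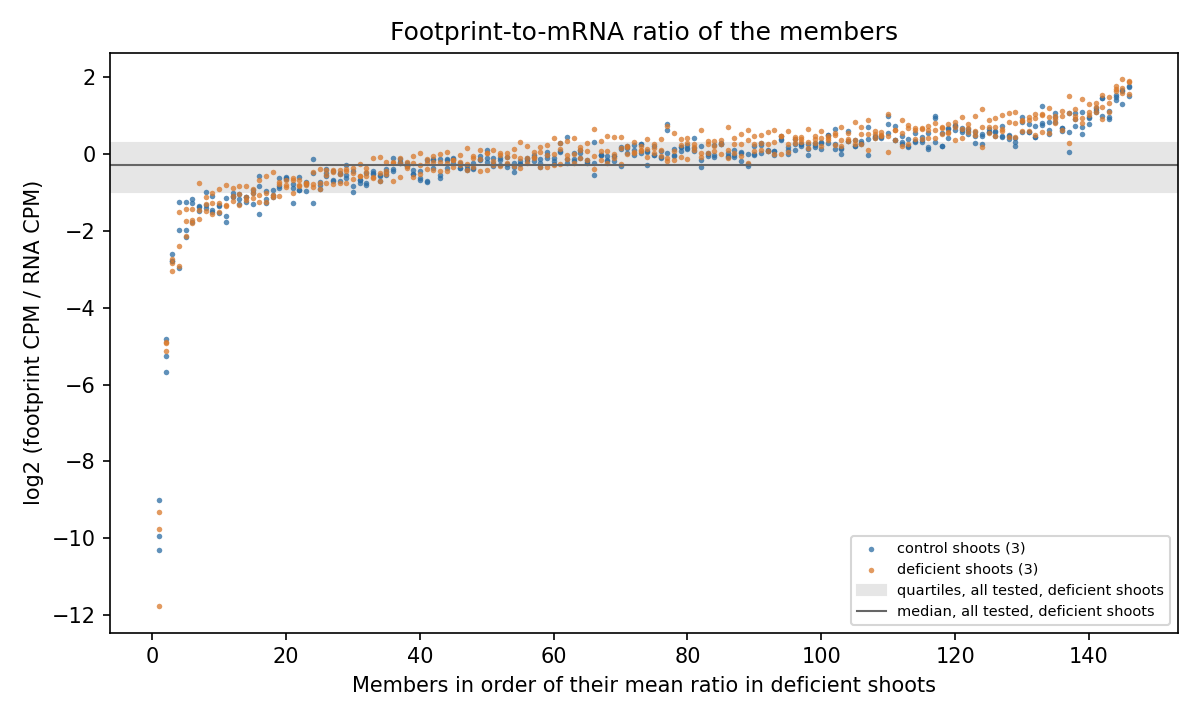
Log2 ratio of footprint to RNA level of the 146 mRNAs in order of their mean in deficient shoots, 1 point per shoot; the grey band and line are the quartiles and median of all transcripts tested in both assays in deficient shoots. The curve is shallow from about -1 to 1.8 and falls steeply at its lower end, to -10.28.

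Some of these genes lie close together, counted in steps of ID number along a chromosome. There were 6 pairs within 5 steps of each other, among them Sobic.009G218900.1 and Sobic.009G219100.1, with mean log2 ratios in deficient shoots of -0.77 and -0.86. Sobic.008G030600.1 and Sobic.008G030900.1 had -1.65 and -0.99, while Sobic.002G329500.1 and Sobic.002G329600.1 had 0.16 and 0.71. Pairs thus differed in how alike their ratios were. A transcript within 30 bases of the same coding length lay within 5 steps of 46 of the 146. The same share over all transcripts was not computed, so this count is a description. Such neighbours could be near-identical copies, which length alone does not show. Where they are, the levels of these mRNAs are uncertain by the reads that copies share. Most of those neighbours were counted at low levels, but Sobic.002G338100.1 reached 571.9 CPM beside Sobic.002G338000.1 at 5661 CPM, and Sobic.007G004800.1 reached 752.1 CPM beside Sobic.007G004600.1 at 982.5 CPM. The named pairs were chosen after their values were seen.

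The RNA comparison asked whether these mRNAs differed between deficient and control shoots. It used the control libraries that chose them, so its counts are a description. With edgeR's quasi-likelihood test and Benjamini-Hochberg adjustment over all 20045 transcripts tested, 1 of the 146 passed the adjusted p threshold of 0.05, and it was higher in deficient shoots. Of all transcripts tested, 0.634% passed, 0.564% as higher. At an unadjusted p under 0.05 there were 30 of the 146 (20.5%), against 12.2% of all tested. The share was 24.7% for the next 150 transcripts by control RNA and 22.7% for the 700 after those, so it was not particular to these mRNAs. The shoots of the treatments did not overlap for 43 of the 146 (29.5%), against 17.6% of all. Of these, 32 were higher in deficient shoots (21.9%, against 9.41%) and 11 lower (7.53%, against 8.18%). The median log2 fold change of the 146 was 0.018, against -0.010 for all tested, and 83 of the 146 were above 0 (56.8% against 47.6%). Of the next 150, 56.7% were above 0, with a median of 0.040. The median of the 146 turned to -0.0094 with unscaled library totals and was 0.0025 without deficient shoot 3. Without control shoot 3 and deficient shoot 1, 42 of the 146 passed (28.8%, against 11.5% of all). Of these, 27 were higher (18.5%, against 6.36%) and 15 lower (10.3%, against 5.09%). That pair was singled out for the likeness of its RNA across treatments, and leaving it out by itself favours calls. These counts are thus a description and rest on fewer shoots. DESeq2 called 4 of the 146, against 1.3% of all, and with the replicate number as a block edgeR called 1, against 0.474%.

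The mRNA that passed was Sobic.003G190100.1, with 1446 bases of coding sequence. Its RNA level was 758.8, 751.8 and 915.9 CPM in control shoots (808.8 ± 92.8) and 1600, 2385 and 2375 CPM in deficient shoots (2120 ± 450). All deficient shoots were above all control shoots. Its RNA rose by a log2 fold change of 1.39 (SE of 0.168, adjusted p = 0.0192 in edgeR), and it moved from rank 105 in control to rank 39 in deficient RNA. Its footprints were 1355, 1484 and 1943 CPM in control shoots (1594 ± 309) and 3179, 4201 and 4480 CPM in deficient shoots (3953 ± 685). Here too the treatments did not overlap, and footprints rose by a log2 fold change of 1.31 (SE of 0.186, adjusted p = 0.0197 in edgeR). Its log2 ratio of footprints to mRNA was 0.84, 0.98 and 1.08 in control and 0.99, 0.82 and 0.92 in deficient shoots, which overlapped. With shoots left out singly, the RNA call was lost without control shoot 1 (adjusted p = 0.107), control shoot 2 (0.176), deficient shoot 2 (0.0564) or deficient shoot 3 (0.056). The footprint call was lost without the same shoots, at adjusted p of 0.102, 0.176, 0.0845 and 0.0774 in edgeR.

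The mRNAs with the lowest RNA fold changes did not pass the threshold. The lowest was that of Sobic.010G240400.1, with 393 bases of coding sequence, at 565.7, 693.6 and 635.1 CPM in control and 566.2, 216.7 and 163.2 CPM in deficient shoots. Deficient shoot 1 lay at the control level and the other 2 deficient shoots far below it, for a log2 fold change of -1.0 (SE of 0.538, adjusted p = 0.541 in edgeR). Without deficient shoot 1 it was -1.73, with an adjusted p of 0.00018 in edgeR. With any other single shoot left out, the edgeR adjusted p was 0.555 to 0.873. Deficient shoot 1 was the one at the control level, so leaving it out by itself favours a call, and that value is a description. Its footprints were 323.2, 368.0 and 382.8 CPM in control and 299.7, 165.6 and 97.2 CPM in deficient shoots, which did not overlap. Their log2 fold change was -0.94 (SE of 0.314, adjusted p = 0.645 in edgeR), or -1.44 (adjusted p = 0.0316) without deficient shoot 1 and -1.39 (adjusted p = 0.0736) without control shoot 3 as well. With any other single shoot left out, the edgeR adjusted p for footprints was 0.374 or more. The footprint values without deficient shoot 1 are likewise a description.

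Sobic.004G214900.1, with the next lowest RNA fold change, had the same order of deficient shoots. Its RNA level was 1089, 1051 and 1090 CPM in control and 1089, 658.2 and 484.3 CPM in deficient shoots, with deficient shoot 1 again at the control level. Its log2 fold change was -0.53 (edgeR adjusted p = 0.56), or -0.92 without deficient shoot 1 (adjusted p = 0.0032). With any other single shoot left out, the edgeR adjusted p was 0.597 to 0.866, so the value without deficient shoot 1 is a description too. At the upper end after Sobic.003G190100.1, Sobic.003G397600.1 had 882.2, 818.6 and 1319 CPM in control and 1629, 1164 and 1165 CPM in deficient shoots. The treatments overlapped, control shoot 3 was the highest control, and the log2 fold change was 0.39 (edgeR adjusted p = 0.56). It was 0.21 without deficient shoot 1 (adjusted p = 0.744) and 0.47 without control shoot 3 and deficient shoot 1 (adjusted p = 0.000148 in edgeR). The last value leaves out the pair singled out for its likeness across treatments, and is a description.

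**Figure D4:**
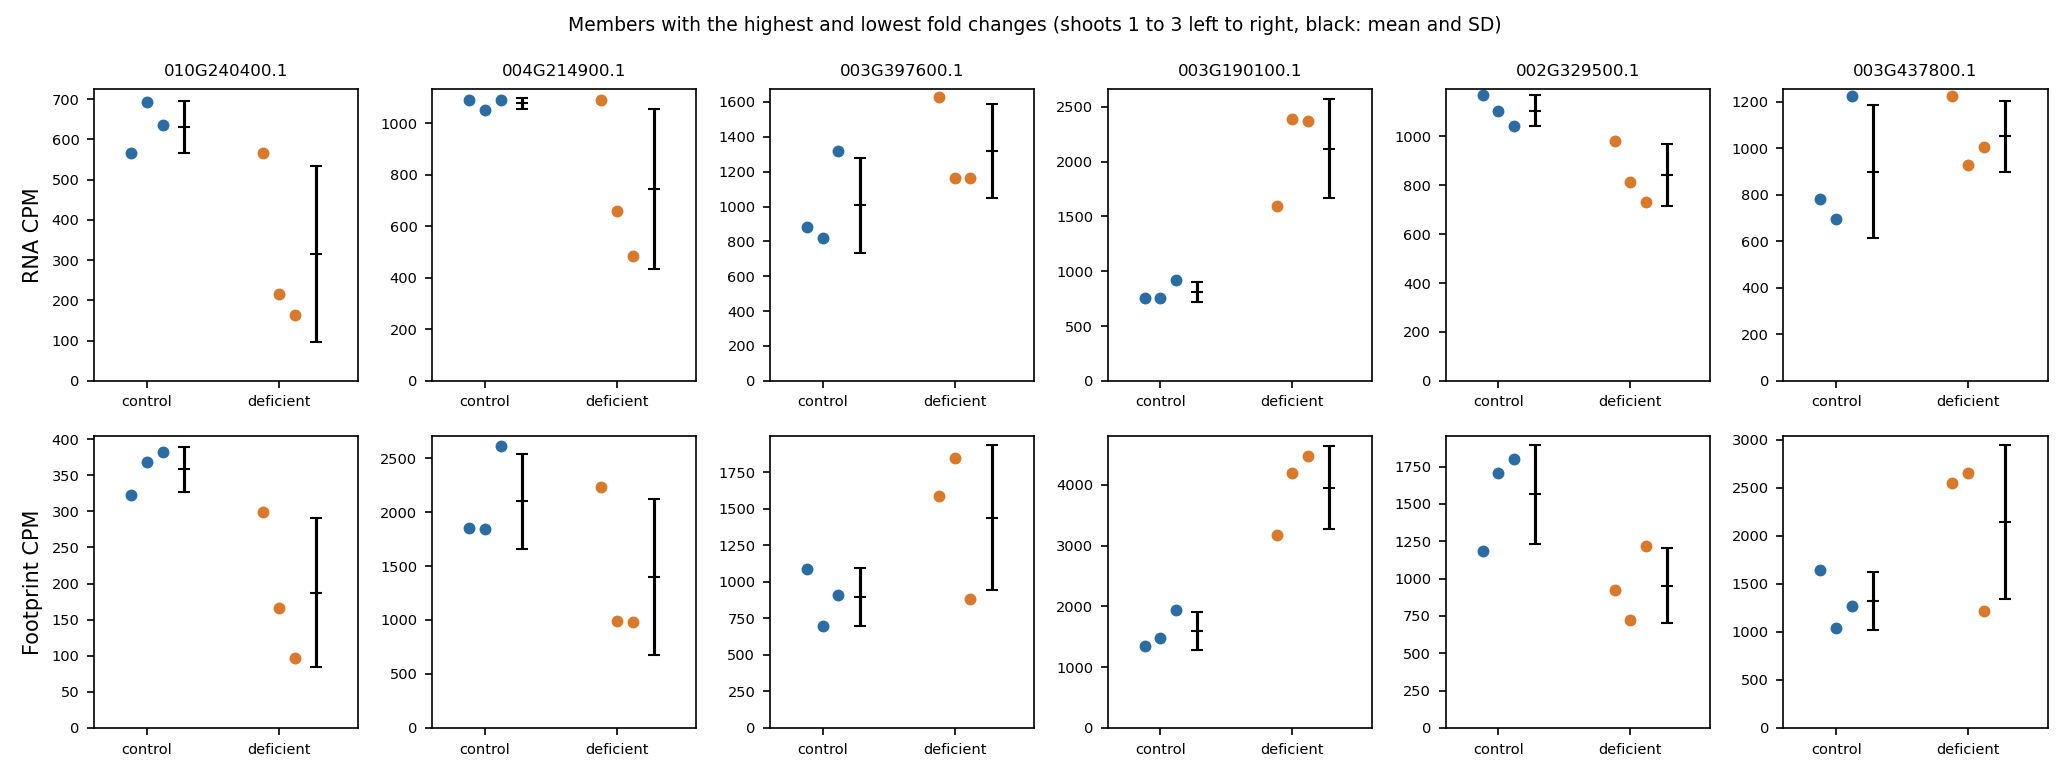
RNA and footprint level in CPM, from 0, of the mRNAs with the highest and lowest fold changes, 1 point per shoot in the order 1 to 3, with the mean and SD of each treatment in black. Sobic.003G190100.1 is separated by treatment in both assays, whereas deficient shoot 1 of Sobic.010G240400.1 and Sobic.004G214900.1 sits with the controls.

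The footprint comparison used libraries that did not choose the mRNAs, although they came from the same shoots. It covered 145 of the 146, since Sobic.010G175400.1 failed the low-count filter. In edgeR 1 of the 145 passed, Sobic.003G190100.1, against 0.224% of 16514 transcripts tested, 0.212% as higher. At an unadjusted p under 0.05 there were 18 (12.4%, against 6.9% of all and 12% of the next 150 transcripts by control RNA). The treatments did not overlap for 24 of the 145 (16.6%, against 10.9%). Of these, 23 were higher in deficient shoots (15.9%, against 5.89%) and 1 was lower (0.69%, against 4.97%). DESeq2 called 1 (0.482% of all) and the replicate block left 1 (0.182%). Without control shoot 3 and deficient shoot 1, edgeR called 2, against 0.459%.

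Footprint levels of these mRNAs leaned upward in deficient shoots without passing the threshold one by one. Their median log2 fold change was 0.15, against 0.00086 over all transcripts tested, and 111 of the 145 were above 0 (76.6%, against 50.2%). The median was 0.069 for the next 150 transcripts by control RNA, 0.015 for the 700 after those and -0.00076 for the following 2000. With unscaled library totals it was 0.060 for these mRNAs.

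The shift was uneven between shoots and between mRNAs. Relative to the mean of the controls, the median log2 footprint level of the 146 was 0.12 in deficient shoot 1, 0.27 in deficient shoot 2 and 0.048 in deficient shoot 3. Each control shoot against the other 2 gave 0.031, -0.10 and 0.061, so deficient shoot 3 lay within the range of the controls. Deficient shoot 2 was the highest of the 6 shoots for 73 of the 146 (50%, against 24.5% of all tested), and control shoot 2 the lowest for 64 (43.8%, against 16.0%). Without deficient shoot 2 the median log2 fold change was 0.093, and without control shoot 2 it was 0.13.

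Coding length went with the shift in deficient shoot 2. The 73 mRNAs of at most 891 bases had a median of 0.45 there and the 73 longer ones 0.055. In the same library the next 150 transcripts by control RNA had 0.21 at or below that length and 0.00033 above it. All transcripts tested had 0.13 and -0.052. In deficient shoot 1 the short and long mRNAs had 0.12 and 0.12, and in deficient shoot 3 they had 0.055 and 0.042. The part of that library's length pattern in the upward median was not tested.

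Of the extremes of the footprint comparison, Sobic.003G190100.1 alone passed. Footprints of Sobic.002G329500.1 were 1187, 1704 and 1801 CPM in control and 920.9, 721.2 and 1217 CPM in deficient shoots, and control shoot 1 overlapped deficient shoot 3. The log2 fold change was -0.71 (SE of 0.215, adjusted p = 0.571 in edgeR). Its RNA was 1171, 1103 and 1043 CPM in control and 981.1, 813.4 and 732.7 CPM in deficient shoots, with no overlap and a log2 fold change of -0.39 (edgeR adjusted p = 0.173). Footprints of Sobic.003G437800.1 were 1647, 1043 and 1271 CPM in control and 2553, 2654 and 1218 CPM in deficient shoots. Deficient shoot 3 lay among the controls, and the log2 fold change was 0.70 (SE of 0.276, adjusted p = 0.686 in edgeR).

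**Figure D5:**
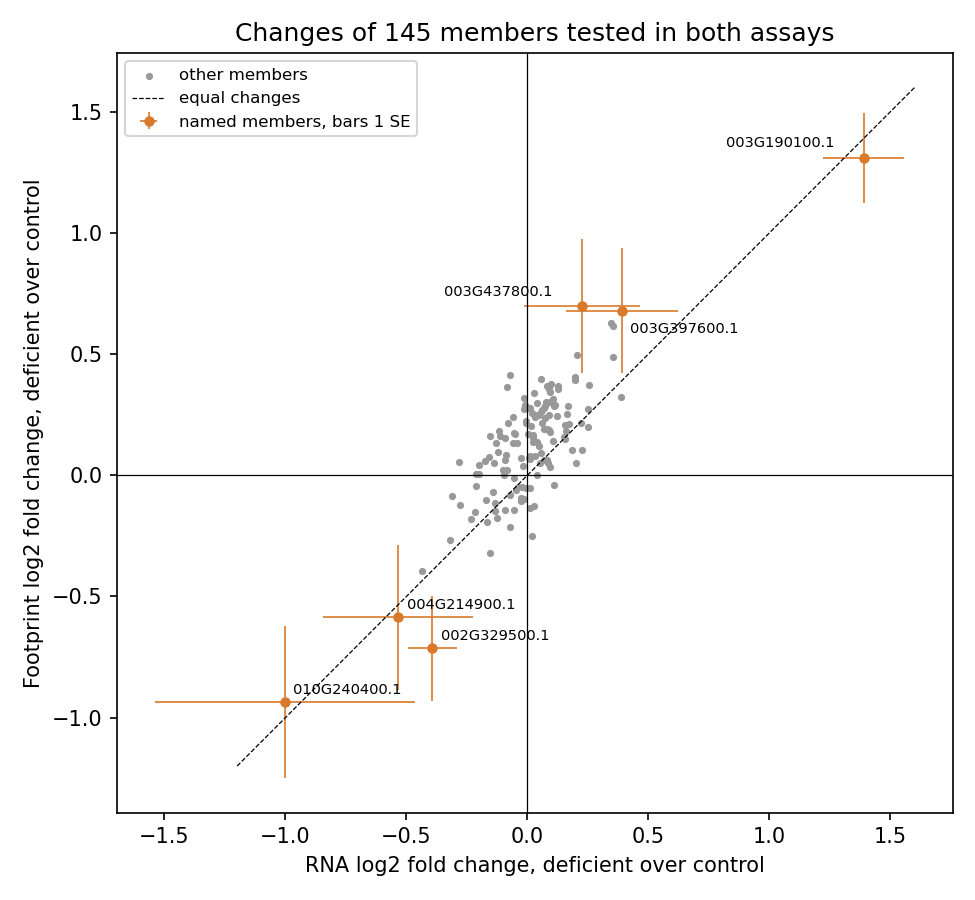
Log2 fold change of footprints against that of RNA, deficient over control, for the 145 mRNAs tested in both assays; named mRNAs carry bars of 1 SE, and the dashed line marks equal changes. Most points lie within 0.5 of 0 on both axes and more of them above 0 for footprints, and Sobic.003G190100.1 stands alone at 1.39 in RNA and 1.31 in footprints.

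The efficiency comparison asked whether footprints changed by more or less than mRNA, as the interaction of assay and treatment over the 12 libraries. In edgeR 0 of the 145 mRNAs passed the adjusted threshold, as did 0.0% of all 16420 transcripts tested, and DESeq2 called 0 as well. At an unadjusted p under 0.05 edgeR had 1 of the 145 (0.69%, against 2.48% of all) and DESeq2 had 5 of 146 (3.42%, against 1.68%). With the shoot as a block, which the common powder of both libraries allows, edgeR again called 0. The median log2 change in efficiency of these mRNAs was 0.13, against 0.011 for all tested, and 109 of the 145 were above 0 (75.2%, against 52.0%). The control RNA that chose these mRNAs enters this comparison as the denominator of the control ratio, where a choice on high values lowers the ratio and raises the change, so the median and this count are a description. Without deficient shoot 2 the median was 0.069, with unscaled library totals it was 0.062, and with the shoot as a block it was 0.12. The treatments did not overlap in the ratio for 9 of the 145 (6.21%), against 8.14% of all tested.

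The mRNA with an unadjusted p under 0.05 was Sobic.002G288300.1, named after its values were seen. Its log2 ratio of footprints to mRNA was 0.32, 0.21 and 0.42 in control and 0.82, 1.10 and 0.45 in deficient shoots. The change was 0.49 (95% interval 0.095 to 0.88, edgeR adjusted p = 1), and its nearest shoots were control shoot 3 and deficient shoot 3. For Sobic.003G190100.1 the change in efficiency was -0.079 (95% interval -0.63 to 0.47), an interval that holds both no change and changes of 0.47 on the log2 scale. The p-values and intervals of these mRNAs come from the fit without the shoot block.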

How the data were processed

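The deposited files are 2 tables of unnormalized whole-number counts for each transcript: RNA-seq reads, and ribosome P sites summed over the coding sequence, beside a coding length in bases. The P site is the ribosome's site for the tRNA that carries the growing chain, and a footprint is counted at the codon there. Per the labels' protocols, footprints of 26 to 34 nt were cut from a gel after extraction with cycloheximide, and 1 powdered shoot supplied both libraries. Per the submitters' processing notes, Bowtie2 and STAR were used, with no roles stated. Not given in the sources used here are the counting program, genome build, annotation, P-site offsets and treatment of reads that match several transcripts.

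The mRNAs described, the lists and the tests were chosen with earlier results of these data known. Levels are CPM on TMM-scaled library sizes. Whole tables were fitted with edgeR 4.0.16 in R 4.3.3 (filterByExpr with a minimum count of 10 and minimum total of 15, robust quasi-likelihood test, Benjamini-Hochberg adjusted p under 0.05), RNA and footprints separately by treatment, and efficiency as the interaction of assay and treatment. The standard error is the log2 fold change divided by the square root of F. Ratios per shoot used a prior count of 0.5, and shares have exact (Clopper-Pearson) 95% binomial intervals. The fits were also run on simulated counts, as a check of the code only. Those counts had the same dispersion (spread beyond counting error) for every transcript, with no outlying library and no shared shoots, unlike these data. DESeq2 1.42.0, other scalings and filters, blocks, other choices of mRNAs and left-out shoots were alternatives, of which the choice on deficient RNA for the 3 comparisons was added after seeing the data.

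Named were mRNAs past the threshold, the 10 most abundant of those kept, the 5 highest and 5 lowest ratios and the 3 on either side of the limit. Without gene names, 2 extremes each way per RNA and footprint comparison were added. The 19 gene lists on product descriptions were void, since 0 of the IDs matched the reference table (assembly Sorghum_bicolor_NCBIv3). No sequence was at hand. Libraries of the same shoot deviated from their group means together (r 0.109 to 0.488), so the shoot block, run as an alternative to the main fit, applies to efficiency.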

Additional observations from a re-analysis of the deposited data

How the results depend on the processing

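The 3 median log2 fold changes of these mRNAs (RNA, footprints, efficiency) moved by less than the SD between deficient shoots under each of 14 alternatives. That limit is loose. RNA medians of single deficient shoots ran from 0.00017 to 0.063, so a move of the RNA median from 0.018 to 0 would also have stayed within it. With unscaled library totals the RNA median went to -0.0094. The footprint median went from 0.15 to 0.060 and the efficiency median from 0.13 to 0.062. Efficiency calls stayed at 0. RNA calls were 1 of 146, against 0.634% of all tested. They were 0 with no filter (0.734% of all), 4 with DESeq2 (1.3%) and 4 with mRNAs chosen on deficient RNA (0.634%). Without control shoot 3 and deficient shoot 1 they were 42 (11.5% of all). Leaving out single shoots gave 0 to 6, while the share of all ran from 0.171% to 2.51%. Footprint calls were 1 of 145, against 0.224% of all tested. They were 2 without that pair of shoots (0.459% of all) and 2 with mRNAs chosen on deficient RNA (0.224%). Leaving out single shoots gave 0 to 2, while the share of all ran from 0.0657% to 0.412%. The cause was not tested. Sobic.003G190100.1 also lost its RNA call with no filter (adjusted p = 0.0659). The median log2 ratio, 0.14 in deficient shoots, was -0.0024 in control shoots. A choice on RNA per kilobase held 24.4% and 24.9% of RNA counts and 24.6% and 26.9% of footprints in control and deficient shoots. Between shoots of equal replicate number across treatments, deviations from the group means correlated weakly and with both signs (r -0.124 to 0.131). With the replicate block (the replicate number for RNA and footprints, the shoot for efficiency) RNA called 1, footprints 1 and efficiency 0, and no call changed. Depth limits the ratio of Sobic.010G175400.1, with 2 to 22 footprints a library. With 3 shoots a group, a missed threshold does not show that levels were equal.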

Other observations

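Above the limit of the choice, 2 transcripts were left out by coding length alone. Sobic.005G228700.1, with 231 bases, had RNA levels of 1978 ± 120 CPM in control and 2398 ± 120 CPM in deficient shoots (SD, n = 3). Its footprints were 2155, 1543 and 1688 CPM in control and 2652, 4222 and 1994 CPM in deficient shoots, highest in deficient shoot 2. Sobic.006G030100.3, with 6981 bases, had RNA levels of 934.6 ± 42.0 and 779.6 ± 96.6 CPM, and its footprints were lowest in deficient shoot 2 at 777.1 CPM. The 4 transcripts left out by ID prefix held 4.05% ± 0.147 of RNA counts and 5.53% ± 0.345 of footprints in control shoots. Among them, Sobic.010G160700.1 had a mean control RNA level of 17713 CPM and Sobic.009G132900.1 of 16708 CPM. The highest of the mRNAs kept had 7994 CPM.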
